A study of Mus musculus with 6 samples.

Results

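Laminins, nidogens and the basement membrane proteoglycans were followed as 10 genes chosen by name: the laminin chains Lama2, Lama4, Lama5, Lamb1, Lamb2 and Lamc1, the linkers Nid1 and Nid2, and the proteoglycans Hspg2 (perlecan) and Agrn (agrin). They are 10 of the 32285 genes in the matrices, and all 10 are rows of the 3 libraries' matrices. Single-cell transcripts and surface antibodies were measured in the left quadriceps of male wild-type (WT) C57BL/6 mice aged 2 to 3 months, on day 7. Quadriceps had a critical volumetric muscle loss (VML) injury of 3 mm, a subcritical injury of 2 mm or no injury. Each group had 4 animals, tagged with hashtag antibodies and pooled into 1 library per group, so injury, pool, staining and library cannot be told apart. Whole muscles were digested to single cells, and intact muscle fibres, which are too large for droplets, are not part of the measurement.

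The basement membrane is the thin sheet of matrix that wraps each muscle fibre, capillary and nerve. Laminins are trimers of an alpha, a beta and a gamma chain that assemble on the cell surface by binding integrins and dystroglycan, nidogens tie this laminin sheet to the collagen IV network, and perlecan and agrin carry heparan sulphate chains that hold growth factors in it. The alpha chain sets much of the receptor binding: the Lama2 chain is that of the muscle fibre sheath, whose loss causes a congenital muscular dystrophy, while the Lama4 and Lama5 chains are those of vessel walls.

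The critical, subcritical and uninjured libraries held 7138662, 4954129 and 5681346 transcript counts (UMIs), and 3085, 2833 and 2169 cells were kept, with medians of 1589, 1280 and 1812 UMIs. Cells were sorted into classes by clustering and named from markers, with names ending in "-like" because they rest on transcripts alone. The 9 markers of fibro-adipogenic progenitors (FAPs) summed to 55451, 56486 and 41035 CPM in FAP-like cells of the critical, subcritical and uninjured library, the 9 endothelial markers to 8917, 8158 and 9797 CPM and the 7 mural markers to 11760, 10425 and 11843 CPM in their own classes, and none of them was at 0 there. These levels are UMI counts scaled to the summed UMIs of a class in a library (CPM). Members' levels have 95% exact Poisson intervals that cover counting error only. Since a class has 1 library per group, differences between libraries carry no p-value, and a member counts as past the fold limit where its log2 fold, with a pseudocount of 1 CPM, is at least 1 in size, its 95% exact interval leaves out 0 and its mean is at least 5 CPM. Only 2.99% to 4.88% of FAP-like cells could be traced to an animal by hashtag, and only endothelial-like and macrophage-like cells had enough traced cells for a test between animals.

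Members that differed between injured and uninjured muscle in some class include the alternative beta chains Lamb1 and Lamb2, Lama2 and Nid1. The sequences just before the start sites of these genes are shown. They are the 250 bases upstream of the start in RefSeq's annotation of GRCm38.p6, whose table held 7 of the 10 members. Lamc1 and Nid2, which also differed, had no window there. Lamb1 lies on the plus strand (window chr12:31265043-31265292), Lamb2 on the plus strand (chr9:108479612-108479861), Lama2 on the minus strand (chr10:27616943-27617192) and Nid1 on the plus strand (chr13:13437352-13437601). Capitals mark matches on either strand to 4 motifs. They are GGGCGG, known as the GC box, which many broadly used promoters hold. They are also CCAAT, bound by the NF-Y factor, and the TATA box TATAAA of tightly placed start sites. The last is TGANTCA, the element of the AP-1 factors.
Lamb1: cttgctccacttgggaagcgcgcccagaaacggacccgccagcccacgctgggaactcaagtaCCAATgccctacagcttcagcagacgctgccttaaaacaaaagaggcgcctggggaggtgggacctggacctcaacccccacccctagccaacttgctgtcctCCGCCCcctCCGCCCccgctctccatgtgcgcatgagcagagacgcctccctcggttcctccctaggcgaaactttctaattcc
Lamb2: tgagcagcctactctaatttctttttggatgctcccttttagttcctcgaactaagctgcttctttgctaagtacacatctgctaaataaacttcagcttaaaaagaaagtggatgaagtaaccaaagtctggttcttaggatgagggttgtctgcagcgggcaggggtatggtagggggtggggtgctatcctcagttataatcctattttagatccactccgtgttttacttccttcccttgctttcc
Lama2: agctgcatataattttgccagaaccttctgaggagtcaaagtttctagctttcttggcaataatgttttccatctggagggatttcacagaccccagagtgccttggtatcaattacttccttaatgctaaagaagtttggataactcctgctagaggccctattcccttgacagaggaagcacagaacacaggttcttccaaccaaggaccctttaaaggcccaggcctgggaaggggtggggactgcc
Nid1: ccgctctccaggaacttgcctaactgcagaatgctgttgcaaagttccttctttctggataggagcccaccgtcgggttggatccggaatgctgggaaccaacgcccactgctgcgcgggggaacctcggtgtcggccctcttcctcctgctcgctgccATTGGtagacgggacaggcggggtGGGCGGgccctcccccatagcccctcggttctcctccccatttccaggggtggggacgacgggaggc
The Lamb1 window has 2 GC boxes, 1 CCAAT and a GC content of 62%, while the Lamb2 window has none of these motifs and a GC content of 43.6%. The Nid1 window has 1 GC box, 1 CCAAT and 64.4% GC, and the Lama2 window has none of the motifs and 47.2% GC. Over all 32851 windows of this length in the table, 32.7% hold a GC box, 33.8% CCAAT, 12.4% TATAAA and 6.75% the AP-1 element, and the median GC content is 52.4%. These matches are letters in a window, not measured binding.

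Each member had its own set of source cells. FAPs are the fibroblasts between muscle fibres, and FAP-like cells held the highest Lama2 level of the named classes with at least 50 cells in each library, at 101 CPM (89.2 to 115) in the critical, 105 CPM in the subcritical and 319 CPM (277 to 365) in the uninjured library. Lama2 stood at 3 UMIs or fewer in the endothelial-like cells of each library. In the critical library the Lama2 level of myogenic-like cells, which include the muscle stem cells, was 86.9 CPM (55.1 to 130), an interval that overlaps that of FAP-like cells, followed by tenocyte-like cells at 67.7 CPM and mural-like cells at 57.9 CPM. Lama5 had the opposite placement: FAP-like cells held 3, 1 and 1 Lama5 UMIs in the critical, subcritical and uninjured library. Lama5 was instead found mainly in endothelial-like cells, at 109, 101 and 111 CPM, and in mural-like cells, which cover vessels from outside as pericytes or smooth muscle, at 78.0, 125 and 200 CPM (critical, subcritical, uninjured). Myogenic-like cells had 30.2 CPM of Lama5 in critical and 38.7 CPM in subcritical muscle, from 8 and 6 UMIs.

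Lama4, the other vascular alpha chain, was shared by more classes. Its level was 215, 217 and 222 CPM in critical, subcritical and uninjured FAP-like cells and 237, 198 and 174 CPM in endothelial-like cells. In uninjured muscle the glial-like cells of nerves had 286 CPM of Lama4 (217 to 370), an interval that overlaps the FAP-like one of 188 to 262. Myogenic-like cells stood apart, with 7.56 CPM in critical and 12.9 CPM in subcritical muscle. Lamc1, the gamma chain of most laminins, was found in all of these, at 276, 244, 279, 168 and 151 CPM in critical FAP-like, endothelial-like, mural-like, tenocyte-like and myogenic-like cells.

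Among the named classes with at least 50 cells Nid1 was highest in FAP-like cells of each library, at 564, 413 and 573 CPM (critical, subcritical, uninjured). Among the same classes Hspg2 was highest in endothelial-like cells in the critical library, at 684 CPM (631 to 739), whereas in the uninjured library the FAP-like level of 532 CPM (477 to 591) and the endothelial-like level of 496 CPM (470 to 524) had overlapping intervals. Agrn, known for its nerve-derived form that gathers acetylcholine receptors at the synapse, was found mainly in vessels, at 72.6, 44.7 and 53.0 CPM in endothelial-like and 47.8, 62.7 and 43.0 CPM in mural-like cells. It was at 10.0, 8.04 and 9.20 CPM in FAP-like cells. Macrophage-like cells, which made up 840 critical and 866 subcritical cells, had 1.55 to 27.1 CPM of the members. That range over so many cells serves as a background for the other classes.

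**Figure D1:**
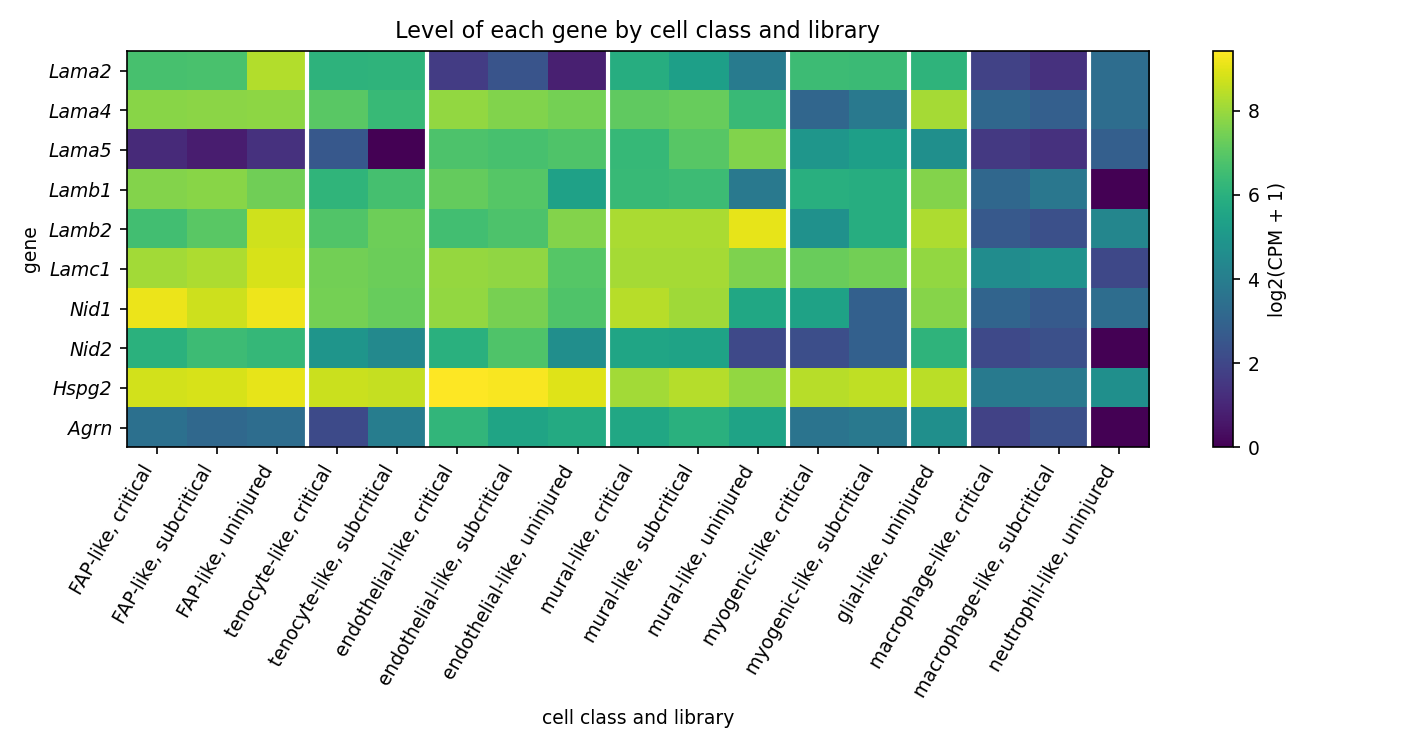
Level of each member (rows) in each cell class and library (columns), as log2 of CPM plus 1 by colour; classes with fewer than 50 cells in a library are not drawn. Lama2 is high in FAP-like columns and low in endothelial-like ones, Lama5 is the reverse, and macrophage-like columns are low for all 10 members.

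In FAP-like cells the injured libraries had a lower Lama2 and Lamb2 level than the uninjured one, and the other measured members moved less. Of 9 members measured, Lama2 and Lamb2 were lower past the fold limit and none was higher in the critical against the uninjured library, where 15.4% of all genes measured were past the limit (5.98% higher and 9.41% lower). In the subcritical against the uninjured library the same 2 were lower and none was higher, beside 14.4% of all genes (5.18% higher and 9.21% lower). The comparison rests on 778 critical, 635 subcritical and 160 uninjured FAP-like cells.

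Lamb2, the beta chain of synapse and vessel laminins, was at 93.3 CPM (81.7 to 106) in the critical, 127 CPM (110 to 147) in the subcritical and 422 CPM (373 to 474) in the uninjured library. The log2 folds against uninjured were −2.16 (−2.42 to −1.91) for critical and −1.72 (−1.99 to −1.45) for subcritical. Cells with at least 1 Lamb2 UMI made up 23.7% of critical, 23.3% of subcritical and 68.8% of uninjured FAP-like cells. After thinning each cell to 1000 UMIs, which left out 61, 94 and 9 cells, these shares were 9.76%, 12.6% and 35.1%, again highest in uninjured cells. In macrophage-like cells thinned the same way the share was 0.522% in critical and 0.394% in subcritical muscle.

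Lama2 followed Lamb2, with log2 folds of −1.64 (−1.91 to −1.37) for critical and −1.59 (−1.90 to −1.29) for subcritical against uninjured. Thinned shares of FAP-like cells with Lama2 were 11.6%, 8.69% and 26.5% in critical, subcritical and uninjured muscle. Lamb1, the beta chain that pairs with these alpha and gamma chains in place of Lamb2, was at 205, 215 and 164 CPM, a log2 fold of 0.32 (0.02 to 0.63) for critical and 0.39 (0.07 to 0.72) for subcritical. It was −0.16 and −0.09 when each cell's CPM was averaged in place of summing UMIs, so its direction depends on the weighting of cells. Lamc1 was at 276, 304 and 463 CPM (log2 −0.75 and −0.60), Hspg2 at 432, 466 and 532 CPM, and Lama4 had folds of −0.05 and −0.03. The direction of Hspg2 also depended on the setting, with folds of −0.48 to 0.12 for critical and −0.40 to 0.21 for subcritical. Its thinned shares were 35.4%, 33.3% and 30.5% in critical, subcritical and uninjured muscle.

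FAP-like cells fell into a pair of clusters that the groups filled differently. Cluster 2, led by Pi16 and C7, held 348 critical, 331 subcritical and 159 uninjured cells, and cluster 4, led by Ptn, Postn and Tnc, held 430 critical, 304 subcritical and 1 uninjured cell. Within cluster 2 Lama2 was at 186, 183 and 320 CPM in the critical, subcritical and uninjured library, and Lamb2 at 162, 225 and 423 CPM. Both were lower still in cluster 4, where Lama2 was at 52.4 and 45.1 CPM and Lamb2 at 53.6 and 52.2 CPM in the critical and subcritical library. Within cluster 2 the critical against uninjured log2 fold of Lama2 was −0.77, short of the fold limit, and that of Lamb2 was −1.38. For subcritical against uninjured neither passed the limit. The class values thus combine a level within the cluster that all groups share with a cluster in which the uninjured library had 1 cell.

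The critical and subcritical FAP-like cells were close, with 0 of 9 members past the fold limit where 1.57% of all genes were. Nid1 stood at 564 CPM (535 to 595) in critical against 413 CPM (381 to 447) in subcritical cells, a log2 fold of 0.45 (0.31 to 0.59). Nid2, its homologue, went the other way, at 64.1 and 87.8 CPM, log2 −0.45 (−0.79 to −0.11). Nid1 was higher in the critical library in both clusters, at 772 against 529 CPM in cluster 2 and 445 against 324 CPM in cluster 4. Among Nid1 and Nid2 UMIs together, Nid1 made up 89.8% (88.2 to 91.3) in critical, 82.5% (79.6 to 85.1) in subcritical and 88.2% (84.7 to 91.1) in uninjured FAP-like cells.

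**Figure D2:**
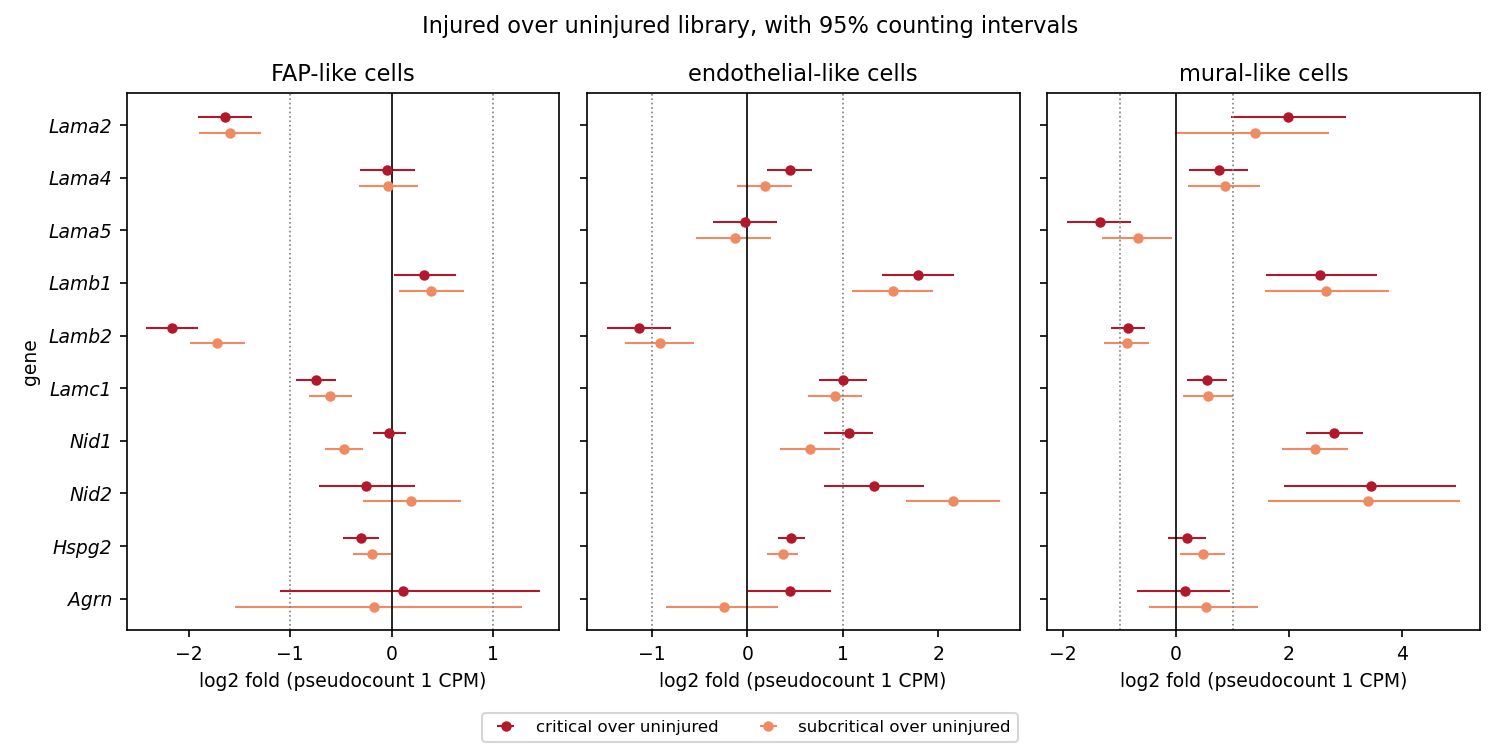
Log2 fold of each member (rows) in the critical (dark) and subcritical (light) library over the uninjured library, in FAP-like, endothelial-like and mural-like cells; points are folds, bars their 95% exact counting intervals and dotted lines the fold limit of 1. Lamb2 lies left of 0 in all 3 panels and Lamb1 right of 0 (left of it in FAP-like cells when each cell's CPM is averaged), and Nid1 and Nid2 lie right of 0 in the vessel classes and closer to 0 in FAP-like cells. The critical mural-like Lamb2 fold ran from −1.02 to 0.44 over 12 library settings, so its side depended on the setting.

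Endothelial-like cells line the vessels, and both injured libraries had more Lamb1 and Nid2 there than the uninjured one. Between libraries, 3 of 9 measured members (Lamb1, Nid1 and Nid2) were higher and 1 (Lamb2) lower past the fold limit in critical against uninjured muscle, where 8.81% of all genes were past it (4.71% higher and 4.1% lower). In subcritical against uninjured muscle 2 members, Lamb1 and Nid2, were higher and none lower, beside 10% of all genes (4.54% higher and 5.49% lower). The class held 624 critical, 570 subcritical and 1328 uninjured cells.

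This class could be tested between animals, with 2 critical, 3 subcritical and 4 uninjured animals that had at least 20 traced endothelial-like cells. Of the 10 members, 7 passed the filter on low counts among 1981 genes tested with edgeR's quasi-likelihood test and Benjamini-Hochberg adjustment. In critical against uninjured animals Lamb1, Lamc1 and Nid1 rose and Lamb2 fell at an adjusted p under 0.05, beside 10.8% of all genes (6.81% higher and 3.99% lower). In subcritical against uninjured animals Lamb1 and Lamc1 rose and no member fell, beside 12.3% of all genes (7.62% higher and 4.64% lower). Traced cells were 21.6% of critical, 22.3% of subcritical and 42.1% of uninjured endothelial-like cells, so the test describes that part of the class. The hashtag counts of subcritical replicate 1 and uninjured replicate 3 were low, with the fitted mean of tagged cells at 4, the lowest value that the fit allowed, so their cells are traced with less certainty. Without uninjured replicate 3 the same 4 critical and 2 subcritical calls were made, and without subcritical replicate 1 Lamc1 was lost.

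Lamb1 was at 131 and 200 CPM in the critical animals, at 122, 152 and 103 CPM in the subcritical animals and at 31.4, 32.5, 56.7 and 37.3 CPM in the uninjured animals. Every injured animal lay above every uninjured one. With so few animals, separation alone says little, for Lamb1 and for the members below. Critical animals also did not overlap uninjured ones in Lama5 and Hspg2, which the test did not call, or in Agrn, which it left out. The share of all genes that separate these animals is not given here. Lamb1 averaged 165 ± 48.7 CPM (SD, n = 2) in critical, 125 ± 24.8 CPM (n = 3) in subcritical and 39.5 ± 11.8 CPM (n = 4) in uninjured animals. By edgeR's quasi-likelihood test its log2 fold against uninjured was 2.18 ± 0.478 (SE, adjusted p = 0.00155) in critical and 1.90 ± 0.519 (adjusted p = 0.0110) in subcritical animals.

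Lamc1 was at 238 and 289 CPM in critical, 267, 243 and 205 CPM in subcritical and 47.0, 128, 87.6 and 152 CPM in uninjured animals. By edgeR its log2 fold was 1.24 ± 0.299 (SE, adjusted p = 0.00386) in critical and 1.19 ± 0.313 (adjusted p = 0.00820) in subcritical animals. Nid1 had another pattern: it was at 274 and 289 CPM in critical, 24.3, 137 and 164 CPM in subcritical and 62.7, 109, 160 and 183 CPM in uninjured animals. Critical animals lay above all others, and the subcritical and uninjured ones overlapped. Nid1's edgeR log2 fold was 1.13 ± 0.311 (adjusted p = 0.0131) for critical and −0.07 ± 0.402 (adjusted p = 0.957) for subcritical against uninjured animals, and 1.19 ± 0.431 (adjusted p = 0.438) for critical against subcritical animals.

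Lamb2 was at 35.7 and 111 CPM in critical, 146, 91.1 and 205 CPM in subcritical and 157, 222, 170.1 and 215 CPM in uninjured animals. Critical animals lay below all uninjured ones, while subcritical animals overlapped both. By edgeR its log2 fold was −1.32 ± 0.390 (SE, adjusted p = 0.0211) in critical and −0.30 ± 0.338 (adjusted p = 0.653) in subcritical animals. Lama4, Lama5 and Hspg2 did not pass in any comparison, with edgeR log2 folds of 0.26, 0.42 and 0.26 for critical against uninjured animals.

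**Figure D3:**
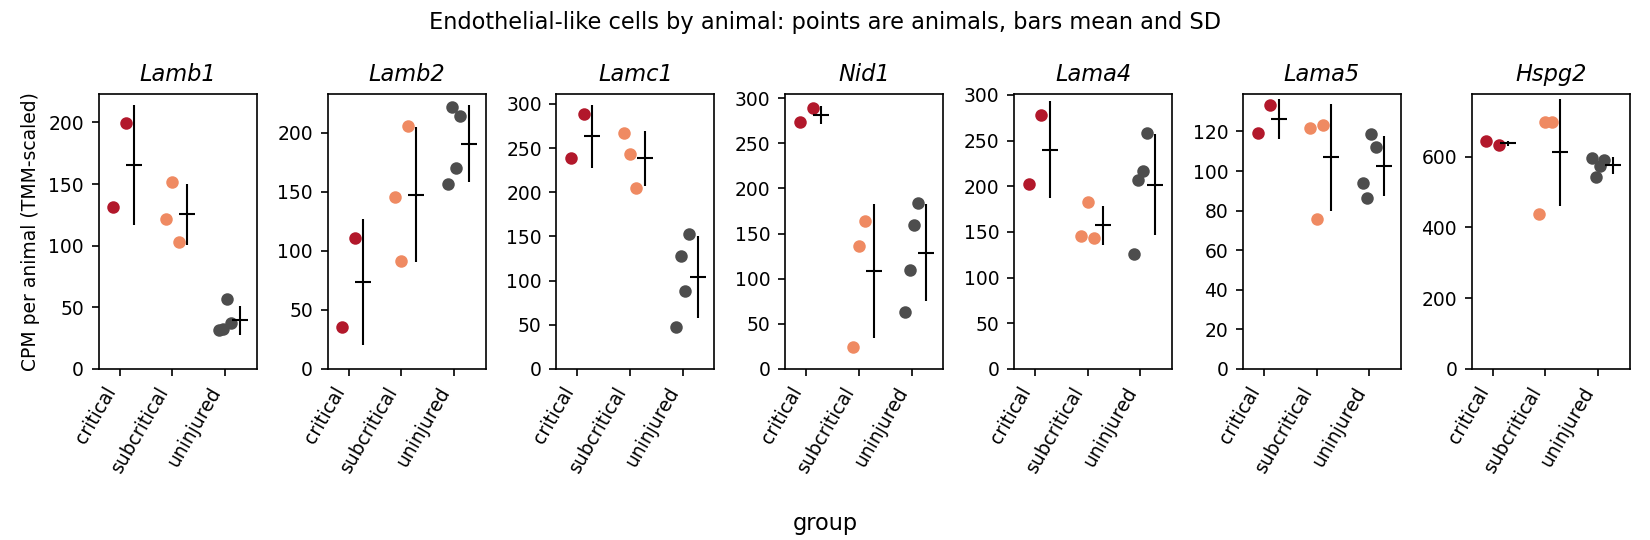
Level in CPM of the 7 members tested in endothelial-like cells, 1 point per animal, with horizontal bars at the group means (2 critical, 3 subcritical and 4 uninjured animals). Lamb1 and Lamc1 points of injured animals lie above all uninjured points, and Lamb2 points of critical animals lie below them. Critical points of Lama5 and Hspg2, which the test did not call, also lie above all uninjured points.

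Each of these 6 calls was lost when one or another single animal was left out. Lamb1 passed in 10 of 11 alternatives for critical against uninjured (adjusted p 0.000168 to 0.14 by edgeR or DESeq2), and was lost without critical replicate 4 at a log2 fold of 1.90. For subcritical it passed in 9 of 10 (adjusted p 0.00906 to 0.166 by edgeR or DESeq2) and was lost without subcritical replicate 2 at a log2 fold of 1.71. Lamc1 was lost by edgeR without critical replicate 4 (adjusted p = 0.11, lowest over alternatives 0.00245) and without subcritical replicate 1 or 2 (adjusted p = 0.0657 and 0.0537, range 0.00527 to 0.0883). Nid1 was lost by edgeR without critical replicate 2 or 4 (adjusted p = 0.135 and 0.123, range 0.00421 to 0.135). Lamb2 was lost by edgeR without critical replicate 2 (adjusted p = 0.438, log2 fold −0.79, range 0.00968 to 0.438), and DESeq2 called neither Lamb2 nor Nid1 (adjusted p = 0.119 and 0.0805). Lamb2 also missed the threshold by edgeR with animals of at least 10 cells (adjusted p = 0.0598) or a hashtag share of at least 70% (adjusted p = 0.0502). The subcritical Lamc1 call missed it by edgeR with no low-count filter (adjusted p = 0.0883) or that hashtag share (adjusted p = 0.0854). Without critical replicate 2 or 4 edgeR left 2 and 1 members and 115 and 103 genes, and without subcritical replicate 1 or 2 it left 1 and 0 members and 157 and 168 genes.

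Nid2, below the filter of that test, was at 62.8, 112 and 24.4 CPM in the critical, subcritical and uninjured endothelial-like libraries, log2 1.33 (0.80 to 1.85) and 2.15 (1.66 to 2.64) against uninjured. In the critical animals used it was at 23.8 and 44.4 CPM, from 2 and 4 UMIs. Subcritical animals had 97.2, 152 and 41.1 CPM and uninjured animals 0, 30.6, 15.5 and 18.7 CPM, so critical and uninjured animals overlapped. The injured libraries had most of their endothelial-like cells in cluster 0, led by Aplnr and Prnd (380 critical, 383 subcritical and 145 uninjured cells), and the uninjured library in cluster 1, led by Car4 and Timp4 (84, 33 and 785 cells). Cluster 0 had the highest Nid2 level of the endothelial-like clusters measured in each library, at 92.3, 162 and 88.5 CPM, whereas in cluster 1 it was at 30.0 CPM in the critical and 30.2 CPM in the uninjured library. Within cluster 1 the critical against uninjured fold of Nid2 was −0.01, while that of Nid1 was 1.32, at 340 against 136 CPM. The Lamb1 fold there was 0.67 from 9 critical UMIs, short of the fold limit, beside 1.79 in the whole class. Over the 12 library settings Lamb1 ran from 1.32 to 1.92 for subcritical, and Lamc1 from 0.35 to 1.14 for critical against uninjured. The test between animals took the whole class, so its folds include the difference in cluster make-up. Between critical and subcritical animals none of the 7 members passed edgeR's test (10 genes, 0.505% of all tested, did; 1 member had an unadjusted p under 0.05 and DESeq2 called none), and between those libraries 0 of 9 members passed the fold limit, beside 2.44% of genes.

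FAP markers were present at a low level in endothelial-like cells and more so after injury. The 9 FAP markers summed to 889, 658 and 105 CPM in critical, subcritical and uninjured endothelial-like cells, 1.60%, 1.16% and 0.256% of their level in FAP-like cells, with Pdgfra alone at 0, in the subcritical library. The same percentage of the FAP-like Lamb1 level is 3.29, 2.50 and 0.419 CPM, against measured endothelial-like levels of 145, 121 and 41.4 CPM. For Nid1 it is 9.05, 4.81 and 1.47 CPM, against 237, 179 and 113 CPM.

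A higher part of Lamb1 beside Lamb2 after injury recurred across classes, and was described as the share of Lamb1 among Lamb1 and Lamb2 UMIs, with 95% Clopper-Pearson intervals. Such a share depends on how well each transcript is captured, so it is compared between groups and is not a ratio of proteins. In FAP-like cells Lamb1 made up 68.7% (65.3 to 72.0) in the critical, 62.8% (58.5 to 67.0) in the subcritical and 28.01% (23.6 to 32.8) in the uninjured library. In endothelial-like cells the shares were 60.9% (54.1 to 67.4), 52.6% (44.4 to 60.7) and 16.8% (14.0 to 19.9), and in mural-like cells 21.3% (15.1 to 28.8), 22.8% (14.1 to 33.6) and 2.35% (1.22 to 4.07). Tenocyte-like cells had 38.2% in critical and 37.5% in subcritical muscle, and the 31 uninjured tenocyte-like cells had 0 of 53 UMIs, for which the Clopper-Pearson upper limit is 6.72% (3 counts of the total would be 5.66%). The direction was the same in these 4 classes.

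Expressed as a change of the Lamb1 to Lamb2 ratio against uninjured, the log2 values were 2.50 (2.09 to 2.90) for critical and 2.12 (1.69 to 2.55) for subcritical FAP-like cells, 2.95 and 2.46 for endothelial-like cells and 3.50 and 3.62 for mural-like cells. Between critical and subcritical FAP-like cells it was 0.38 (0.03 to 0.73). Within FAP-like cluster 2 the shares were 56.2%, 45.9% and 27.8% in the critical, subcritical and uninjured library, a log2 ratio change of 1.74 and 1.14, and cluster 4 had 79.1% in critical and 81.7% in subcritical muscle. In each of the 4 endothelial-like clusters both injured libraries had a higher share than the uninjured one, although clusters 1, 6 and 12 rest on 12 to 43 UMIs in the injured libraries. In cluster 0 it was 73.4%, 55.4% and 33.3%.

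The cluster led by smooth muscle genes held almost no Lamb1 in any library. Mural-like cluster 10, led by Myh11 and Pln, had 1 Lamb1 UMI of 70 in the critical, 0 of 35 in the subcritical and 0 of 464 in the uninjured library, where the Clopper-Pearson upper limit of the last is 0.792% (3 counts of the total would be 0.647%). Cluster 8, led by the pericyte genes Rgs5 and Kcnj8, had shares of 38.8% (28.1 to 50.3), 40.9% (26.3 to 56.8) and 25.5% (13.9 to 40.3), and these intervals overlap. The class difference in mural-like cells sits beside a difference in make-up, with 162, 108 and 57 cells in cluster 8 and 57, 52 and 190 cells in cluster 10 (critical, subcritical, uninjured).

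**Figure D4:**
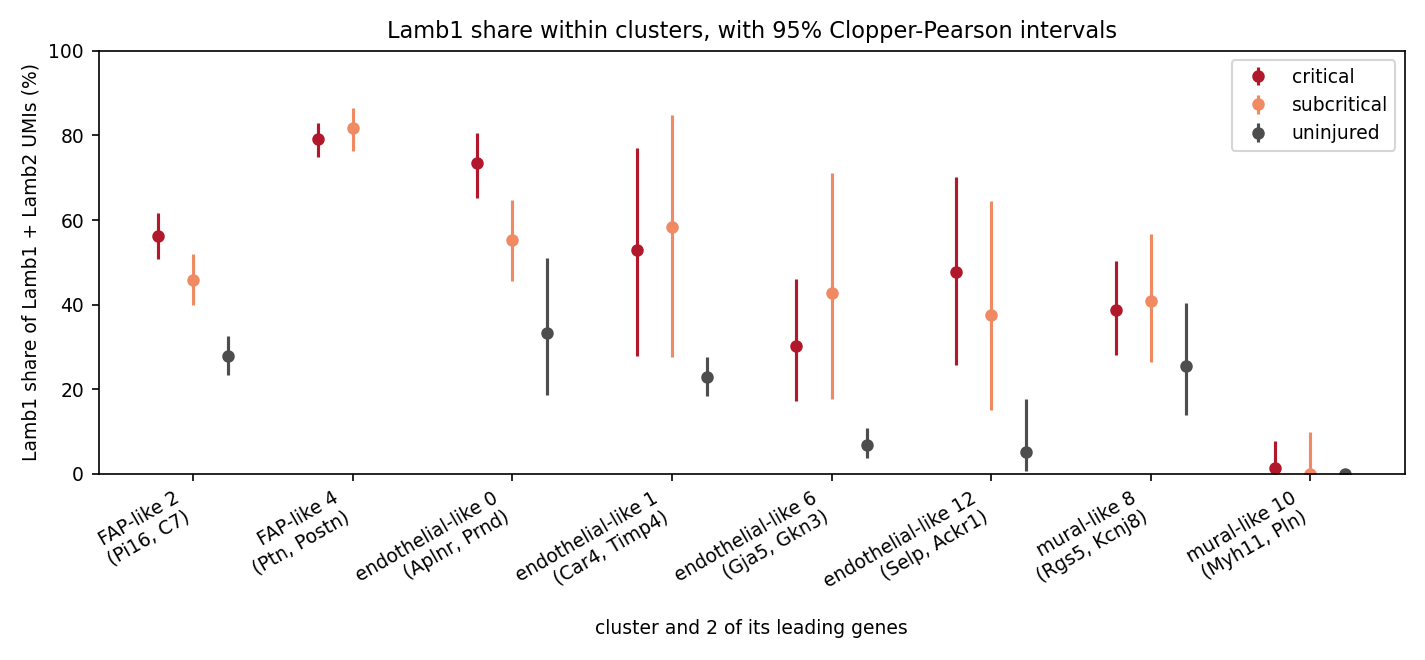
Lamb1 as a percentage of Lamb1 and Lamb2 UMIs in each cluster of FAP-like, endothelial-like and mural-like cells, 1 point per library with at least 10 such UMIs and 20 cells, with 95% Clopper-Pearson intervals. Critical and subcritical points lie above uninjured ones in the 4 endothelial-like clusters and FAP-like cluster 2, and all libraries lie near 0 in mural-like cluster 10.

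Between animals the share could be given for endothelial-like cells only. With at least 20 Lamb1 and Lamb2 UMIs per animal, 1 critical animal had 64.3% and 3 uninjured animals 17.5% ± 6.55 (SD), with no test. With at least 10 UMIs the share was 71.4% ± 10.1 (SD, n = 2) in critical, 47.1% ± 14.7 (n = 3) in subcritical and 17.3% ± 5.36 (n = 4) in uninjured animals. The exact two-sided permutation p was 0.133 for critical against uninjured (adjusted 0.6) and 0.0571 for subcritical against uninjured (adjusted 0.514 over 9 tests), each the smallest p that these numbers of animals allow. Neither comparison can reach 0.05, and the order of the groups was that of the libraries.

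The alpha and nidogen pairs moved less uniformly. The Lama2 share of Lama2 and Lama4 UMIs in FAP-like cells was 32.0% (28.8 to 35.4) in the critical, 32.6% (28.5 to 37.0) in the subcritical and 58.9% (53.6 to 64.1) in the uninjured library, a pair looked at after its values were seen. Within cluster 2 it was 42.8%, 41.6% and 58.9%. The Lama4 share of Lama4 and Lama5 UMIs was 68.4%, 66.2% and 61.1% in endothelial-like and 64.0%, 54.4% and 29.0% in mural-like cells. In mural-like cluster 8 it was 80.3%, 76.9% and 58.8%, and in cluster 10 it was 24.0%, 5.56% and 24.6%, where the subcritical value is 1 of 18 UMIs. Between endothelial-like animals with at least 20 UMIs the Lama4 share averaged 65.3% ± 3.26 (SD, n = 2) in critical and 68.3% ± 3.23 (n = 3) in uninjured animals, with an exact permutation p of 0.4 (smallest possible 0.2, adjusted 0.8).

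The Nid1 share of Nid1 and Nid2 UMIs in endothelial-like cells was 79.1% (73.8 to 83.7) in the critical, 61.5% (54.3 to 68.4) in the subcritical and 82.3% (77.9 to 86.1) in the uninjured library. The log2 ratio change of critical against subcritical was 1.24 (0.62 to 1.86), beside 0.90 (0.53 to 1.27) in FAP-like cells. In endothelial-like cluster 0 it was 1.30 (0.63 to 1.98). Between critical and uninjured animals with at least 20 UMIs the share averaged 89.3% ± 3.77 (SD, n = 2) and 86.7% ± 7.45 (n = 3), with an exact permutation p of 0.8. With at least 10 UMIs, 2 subcritical animals had 47.4% (of 19 UMIs) and 80% (of 10 UMIs), beside 92% and 86.7% in the critical animals. The exact permutation p for critical against subcritical was 0.333, the smallest possible (adjusted 0.6).

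Mural-like cells of both injured libraries had more of both nidogens and of Lamb1, and those of the critical library also more Lama2. In critical against uninjured cells 4 of 10 members were higher and 1 lower past the fold limit, beside 17.4% of all genes (11.7% higher and 5.73% lower). In subcritical against uninjured cells 3 were higher and none lower, beside 12.3% (7.74% higher and 4.54% lower), and between the injured libraries none of 10 passed, beside 3.62%. Nid1 was at 342 CPM (287 to 405) in the critical, 270.1 CPM in the subcritical and 48.4 CPM (35.3 to 64.7) in the uninjured library, log2 2.80 (2.31 to 3.31) and 2.46 (1.87 to 3.05). Nid2 was at 45.3 and 43.4 CPM, against 3.22 CPM from 3 UMIs in the uninjured library. Lama5 was the member that was lower past the fold limit, at 78.0 CPM in the critical and 200 CPM in the uninjured library, log2 −1.35 (−1.94 to −0.80). Lamb2 was at 297, 294 and 536 CPM in the critical, subcritical and uninjured library, log2 −0.85 and −0.86, short of the limit. Over 12 library settings its critical fold ran from −1.02 to 0.44, so the direction depended on the setting.

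The clusters divide these values. Nid1 in cluster 8 was at 421, 376 and 222 CPM in the critical, subcritical and uninjured library, and Nid2 at 57.4, 56.8 and 12 CPM. Lama5 in the smooth muscle cluster 10 was at 226, 256 and 225 CPM, a log2 fold of 0.01 for critical, and in cluster 8 it was at 38.3, 63.9 and 84.0 CPM. FAP markers were higher here than in endothelial-like cells, at 7297, 2894 and 533 CPM, 13.2%, 5.12% and 1.30% of the FAP-like level, with Pdgfra and Lum at 0 in the subcritical and uninjured libraries. The same percentage of the FAP-like level is 74.3, 21.2 and 7.45 CPM for Nid1, 27.0, 11.02 and 2.13 CPM for Lamb1 and 13.3, 5.39 and 4.14 CPM for Lama2. These lie below the measured mural-like levels of Nid1, Lamb1 (80.6, 86.8 and 12.9 CPM) and Lama2 (57.9, 38.6 and 14.0 CPM). The part of other cells in the mural-like differences was not tested further.

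**Figure D5:**
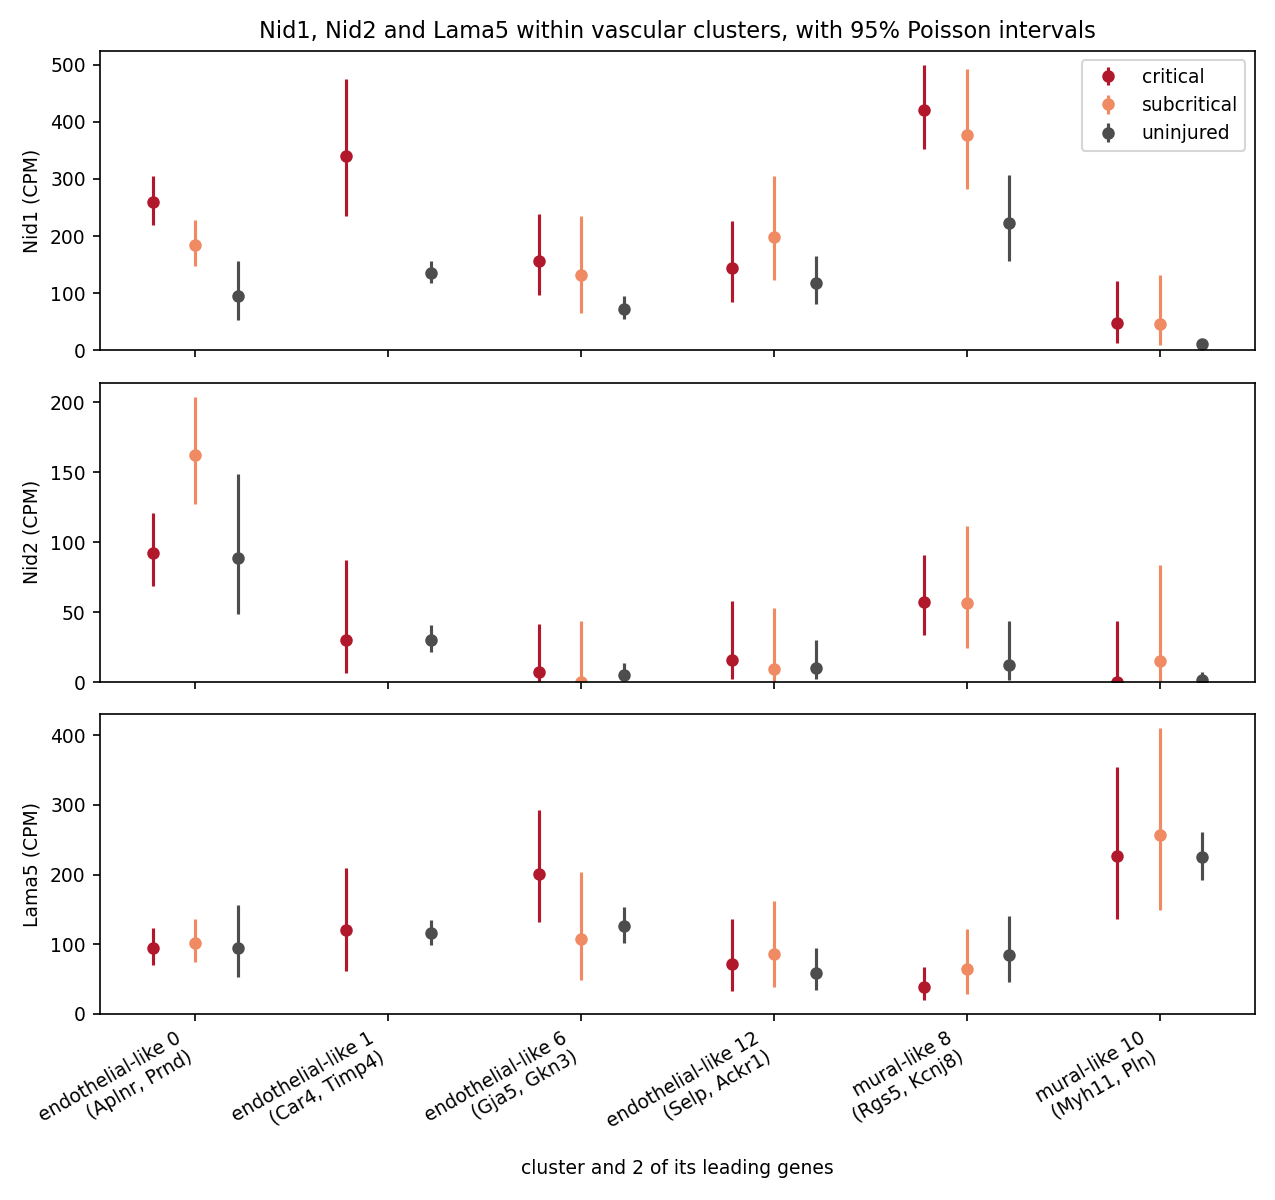
Level in CPM of Nid1, Nid2 and Lama5 in clusters of endothelial-like and mural-like cells, 1 value per library from critical to uninjured with 95% exact Poisson intervals. A library with fewer than 50 cells in a cluster is not drawn. Lama5 in mural-like cluster 10 is alike in all libraries.

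The other basement membrane genes were counted from lists chosen for their function, to be read against the shares of all genes past the same limit: 5.98% higher and 9.41% lower in critical FAP-like cells, and 4.71% higher and 4.1% lower in critical endothelial-like cells. The basement membrane collagens split by class: in endothelial-like cells 4 of 4 measured were higher past the fold limit in both injured libraries, and by edgeR's quasi-likelihood test between animals all 4 rose in both. In critical against uninjured animals the collagen IV chains Col4a1 and Col4a2 had edgeR log2 folds of 1.05 ± 0.130 (SE, adjusted p = 1.93e-07) and 0.94 ± 0.144 (adjusted p = 1.15e-05). Col15a1 and Col18a1, the collagens that carry the basement membrane's endostatin-type domains, had 2.77 ± 0.260 and 4.83 ± 0.607 (adjusted p = 3.5e-10 and 2.41e-07 by edgeR). In FAP-like cells 6 of 7 were lower and 1 higher in the critical library, and 4 lower and 1 higher in the subcritical one. Col4a3, Col4a4 and Col4a5 had log2 folds of −2.35, −2.30 and −2.04 for critical against uninjured, and Col18a1 was the one higher, at 1.09.

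Other basement membrane proteins in FAP-like cells were also mostly lower, with 7 of 12 lower and 2 higher in the critical library. Ntn1, a netrin, Vwa1, a perlecan-binding protein, and Hmcn2, a hemicentin, had log2 folds of −2.96, −2.47 and −2.45, and Pxdn, the peroxidase that crosslinks collagen IV, 2.12. In endothelial-like cells 1 of 9 was higher, the collagen-binding Sparc, which rose between animals by an edgeR log2 fold of 0.99 ± 0.115 (adjusted p = 5.65e-08). Of the laminin and agrin receptors, 0 of 10 were higher and 1 lower in critical FAP-like cells and 1 of 11 higher in critical endothelial-like cells (Itga2, 2.80), counts near those shares. Between animals Bcam, a laminin receptor, fell in subcritical endothelium at an edgeR log2 fold of −0.80 ± 0.191 (adjusted p = 0.00321). Of the heparan sulphate genes, whose products build and trim the chains of perlecan and agrin, 3 of 13 were higher in critical FAP-like cells (Hs6st1 at 1.53, Sulf2 at 1.16 and Hs2st1 at 1.08) and none lower, whereas in subcritical FAP-like cells 2 were higher and 2 lower, with a list median of −0.12. In critical endothelial-like cells 2 of 12 were higher (Sulf2 at 1.42 and Ndst1 at 1.07) and 1 lower (Glce at −1.16), and of the other laminin chains 1 of 5 was measured in either class. It did not pass against uninjured, and in endothelial-like cells it was Lama3, which was past the limit in the critical against the subcritical library (41.2 and 19.3 CPM, log2 1.05, 0.14 to 2.03) and was named after its values were seen.

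The receptor side was read on the surface for integrin alpha 6, which binds laminins and was stained as CD49f. Its mean counts per endothelial-like cell were 19.6, 23.6 and 25.7 in the critical, subcritical and uninjured library, 10.1%, 9.34% and 8.82% of all panel antibody counts in those cells. Its transcript Itga6 was at 492, 451 and 449 CPM there, with an edgeR log2 fold between animals of 0.13 ± 0.196 for critical against uninjured (adjusted p = 0.755). In FAP-like cells CD49f averaged 1.77, 2.37 and 2.56 counts. With 1 staining tube per group, differences in antibody counts were not tested.

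In tenocyte-like and myogenic-like cells only the injured libraries had 50 cells or more. Between critical and subcritical libraries no member passed the fold limit in tenocyte-like cells (where 3.26% of genes did), in myogenic-like cells (2.7%) or in macrophage-like cells (3.01%), and no member passed the low-count filter of the macrophage-like test between animals. Hspg2 was well measured in both: it was at 405 and 382 CPM in critical and subcritical tenocyte-like cells and at 336 and 368 CPM in myogenic-like cells. Nid1 in myogenic-like cells was at 41.6 and 6.45 CPM, a fold whose interval (−0.09 to 5.31) holds 0.

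Over the 18 profiles of a class in a library with at least 50 cells, the genes whose log2 levels ran most like each member were named by Pearson's r among 11193 genes. Profiles of 1 library share its depth and those of 1 class share its cells, so these values describe the classes. Lama2 was nearest to Hoxc10 (r = 0.956), Islr and Adamts2, Lama4 to Rtl8c (0.957), Meox2 and Pcdh19, and Lama5 to Bcam (0.967), a receptor for that chain, Mcam and Actn4. Lamb2 was nearest to Klf9 (0.971), Timp3 and Eml1, and Lamb1 to Bcl7c (0.929), Dnpep and the member Lamc1 (0.921). Lamc1 was nearest to Pde6d (0.942), Emp2 and Lix1l, Hspg2 to Nfib (0.959), Plpp1 and Ddah2, and Agrn to Luzp1 (0.936), 2900026A02Rik and Asap2. Nid1 was nearest to Lama4 (0.917), Hic1 and Gstm2, and Nid2 to Prnp (0.905), Lamb1 (0.892) and Lama4 (0.887). The least alike pair of members was Lama5 and Lama2 (r = −0.369).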

How the data were processed

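The deposited files were 3 matrices of raw UMI counts, made by the authors with cellranger 6.0.2 per the file headers; GRCm39 (mm39), bcl2fastq and Cell Ranger are named in the submitters' processing notes. Per the labels, 4 hashtagged animals per group were pooled and run as 1 library of the 10x 5′ assay with an antibody panel.

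Cells with at least 200 genes, 500 UMIs and at most 20% mitochondrial UMIs were kept. The matrices held 8427 barcodes, and among those that passed these limits Scrublet marked 75 (0.909%). These were kept in the main values, and the highest doublet scores were left out as an alternative. Cells with several hashtags (75, 68 and 25 in the critical, subcritical and uninjured library) were removed. Hashtag calls came from a mixture per hashtag, with lowest counts of 3 to 8, and 2 of the animals used had a tagged mean at the fit's lower bound of 4. Libraries share 84 cells' barcodes. Clusters used scanpy 1.11.5 (2000 variable genes, 1 of the 10 members among them, 30 components, Leiden resolution 0.8, leidenalg 0.10.2, no batch correction) under Python 3.11.15. Unnamed clusters and the small B-like cluster enter no comparison between groups.

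UMI sums per animal (at least 20 cells) were tested with edgeR 4.0.16 in R 4.3.3 (TMM, filterByExpr, robust quasi-likelihood, Benjamini-Hochberg over all genes), with DESeq2 1.42.0 as alternative. On data simulated with 4-fold changes and the same spread between animals for every gene, 170 of 200 changed genes were recovered for the endothelial-like fit, with 15 false calls. Smaller folds, such as those of Lamc1, Nid1 and Lamb2, were not simulated, so this recovery does not describe them. Exact tests used scipy 1.17.1. Library folds have exact binomial intervals. Members and lists were chosen with earlier results of these data known. Beyond the members, genes were named by rule: up to 4 per list with the largest critical against uninjured fold in FAP-like and in endothelial-like cells among those measured, the 3 most correlated genes per member, and markers. Animals are the replicates.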

Additional observations from a re-analysis of the deposited data

How the results depend on the processing

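No paired analysis was possible because the labels carry no replicate numbers that groups share, and a hashtag number only names an animal. Against uninjured, the directions of Lama2 and Lamb2 in FAP-like cells and of Lamb1 and Lamb2 in endothelial-like cells were the same under the 12 library settings, of which 3 were chosen after seeing the data. Within the cluster that holds most uninjured cells, the members past the fold limit were 1 (critical) and 0 (subcritical) in FAP-like, 2 and 1 in endothelial-like, with 1 between the injured libraries, and 1 and 0 in mural-like cells, and the Lamb1 to Lamb2 log2 ratio was 1.74 and 1.14 in FAP-like cells, 1.92 in critical endothelial-like cells and −0.32 for critical against subcritical. There the signs of the Nid2 fold in endothelial-like (−0.0102) and mural-like cells (−1.21), of Lama5 in mural-like cells (0.00836), of the Lama4 to Lama5 ratio in endothelial-like (−0.0785) and mural-like cells (−0.0441 for critical, −2.47 for subcritical) and of the Nid1 to Nid2 ratio in subcritical endothelial-like cells (0.152) turned. By the mean of each cell's CPM, the FAP-like ratios were 1.87 and 1.43 and the critical mural-like ratio 2.34, and the counts of members were 1 in FAP-like, 2 in endothelial-like and 1 in tenocyte-like cells between the injured libraries, 2 in critical endothelial-like and 5 in subcritical mural-like cells. Between the injured libraries the count was 1 in mural-like and in myogenic-like cells at 1000 UMIs or more, 1 in myogenic-like cells by marker score, and 1 in endothelial-like and in tenocyte-like cells without the 10 highest cells.

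Between endothelial-like animals, DESeq2 called 135 genes and 2 members for critical and 158 genes and 1 member for subcritical against uninjured, at least 10 cells per animal left 2 and 1 members, a hashtag share of 70% left 138 genes and 1 member for subcritical and 6 genes between the injured groups, and fitting only 2 groups left 1 member for subcritical. Leaving out 1 animal gave 103 to 221 genes and 1 to 4 members for critical, 157 to 260 genes and 0 to 2 members for subcritical, 4 to 12 genes between the injured groups and 26 to 52 genes in macrophage-like cells. Below the threshold, signs turned between the injured groups for Hspg2 (0.0334 without a low-count filter, −0.197 to 0.0528 without 1 animal), Lamc1 (−0.112 with 10 cells, −0.0848 at a 70% hashtag share, −0.0281 to 0.164 without 1 animal) and Lama5 (−0.0547 to 0.338), and against uninjured for subcritical Nid1 (0.357 at a 70% hashtag share, −0.378 to 0.267 without 1 animal) and Lamb2 (−0.630 to 0.0338). The Lamb1 share difference of critical minus uninjured animals was 54.1 percentage points with at least 10 UMIs. With at least 20 UMIs it was 46.8, and 44.4 to 50.5 without 1 uninjured animal, the only critical animal being always kept. The Nid1 share difference with at least 20 UMIs ran from −1.64 to 5.32 without 1 animal. Except where a setting leaves fewer cells, animals or genes, the cause was not tested. Depth limits Agrn, Nid2 and Lama5, which rest on few UMIs in several classes. The called members too rest on few UMIs per animal in endothelial-like cells. Lamb1 had 5, 10 and 5 UMIs in the subcritical animals used and 2 in uninjured replicate 1. Lamb2 had 3 and 10 UMIs in the critical animals used. Nid1 had 1 UMI in subcritical replicate 1, and Lamc1 had 3 in uninjured replicate 1.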

Other observations

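One cluster kept out of the FAP-like class held high levels of several members. Cluster 13 (149 critical, 126 subcritical and 5 uninjured cells) was nearest to FAP markers but was left unnamed because their score, a log2 difference from other clusters, was under 1 (0.778, beside 0.675 for the next list). Its leading genes were B830012L14Rik, Dnm3os, Zfp469, Gm26917 and the nuclear RNA Neat1, and its median was 894.5 UMIs per cell. Its Lamb1 level was 777 CPM (650 to 921) in the critical and 627 CPM (502 to 775) in the subcritical library, and its Lama4 level 666 and 708 CPM. Nid1 was at 660 and 511 CPM, Hspg2 at 1040 and 948 CPM, Lama2 at 193 and 175 CPM, and Lamb2 at 128 and 161 CPM, so its Nid1, Hspg2 and Lama2 levels were above those of every named class with at least 50 cells in both libraries. Its 5 uninjured cells are too few for a level, so it enters no comparison with uninjured muscle.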
